A study of Mus musculus with 18 samples.

Results

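The chemokine family in mouse liver comprised 54 of the 18193 genes measured on the array, 33 ligands and 21 receptors. Every gene with a symbol of the form Ccl, Cxcl, Cx3cl, Xcl, Ccr, Cxcr, Cx3cr, Xcr or Ackr followed by a number was taken, provided that a probe set paired with that symbol alone measured it. The brightest such probe set stood for the gene. Membership went by name and not by a measured value, while the probe set went by its mean level. Earlier results of these data were known when the family was chosen. Liver RNA had been hybridised to Affymetrix Mouse430_2 arrays, which read each transcript with sets of short probes, on 18 arrays with 1 mouse each. All mice were male C57BL/6J, obtained at 5 weeks of age and carrying no engineered allele, and each diet was fed for 20 weeks to 6 mice. Control mice ate AIN93G, a purified rodent diet. Western mice ate a Western-style diet in which fat gave 39.9% of the energy and sucrose 34.0%, made with 20% butter, 1% soy oil and 0.15% cholesterol. Quercetin mice ate that Western-style diet with 0.05% quercetin, a plant flavonol, added. Mice were kept at 3 to a cage, and which mice shared a cage is not stated, so the p-values measure only the spread between these samples. Control arrays 4 and 5 were nearly identical and were counted as 1 sample, which left n = 5 for the control group and n = 6 for each other group.

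Chemokines are small secreted proteins that guide leukocytes along concentration gradients. They bind receptors with a membrane-spanning bundle that signal through inhibitory G proteins, and the atypical receptors of the Ackr group bind and clear chemokines without that signal. In the liver, resident macrophages (Kupffer cells), endothelium, stellate cells and hepatocytes can all make chemokines, and Ccl2 with its receptor Ccr2 is best known for drawing monocytes out of the blood. Levels below are log2(signal + 16) after quantile normalization, where a signal of 0 would lie at 4. A fold is a ratio of signal + 16, which understates the change of dim genes. Because probe sets differ in their response, levels are compared between mice and never between genes.

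The arrays differed in brightness with the diet. Their trimmed mean signals were 66.7 to 80.8 on the control diet, 80.2 to 101.8 on the Western diet and 82.3 to 95.4 with quercetin, and quantile normalization removed this difference. The log2 ratio of the actin probe sets at the 3' and 5' ends, a measure of RNA or labelling quality, was 0.63 to 0.77 in control, 0.39 to 0.68 in Western and 0.45 to 0.65 in quercetin arrays. These actin ranges overlap, but their means of 0.68, 0.54 and 0.55 went partly with the diet. The same ratio for the Gapdh probe sets was -0.42 to -0.31, -0.40 to -0.36 and -0.44 to -0.34 in these groups, ranges that overlap too. Only the actin ratio was used as a covariate below, and in calls lost with it, diet and this ratio cannot be told apart. All 10 of the hepatocyte markers measured lay above background, as the tissue label requires. Without quantile normalization the median gene was higher by 0.22 in Western than in control mice and 17 members were called for that comparison, with 27.3% of all genes called. The values below are relative to that shift.

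Of the 54 family members, 29 lay near background in all 3 groups, 15 of the 33 ligands and 14 of the 21 receptors. The limit was 5.13, the 90th percentile of 52 genes restricted to organs other than liver, such as photoreceptor, muscle and sperm genes, whose median was 4.45. Ligands above it in every group numbered 15. They were Ccl4, Ccl5, Ccl6, Ccl9, Ccl24, Ccl25, Ccl27a, Cxcl1, Cxcl9, Cxcl10, Cxcl11, Cxcl12, Cxcl13, Cxcl14 and Cxcl16. The 5 receptors above it in every group were Ccr2, Cxcr3, Ackr1, Ackr2 and Ackr4. Ccl2, Cxcl2, Ccl28 and Cx3cr1 lay under the limit in control mice and over it in both groups on the Western diet, while Cxcr6 was over it in control mice alone. Another Ccl28 probe set of similar brightness went the other way, with means of 5.16 in control, 4.89 in Western and 5.09 in quercetin mice. The limit decides these counts: 45 members were near background with the brightest of the silent genes (Syt1, 6.29) as the limit, and 12 with the 25th percentile of all genes.

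**Figure D1:**
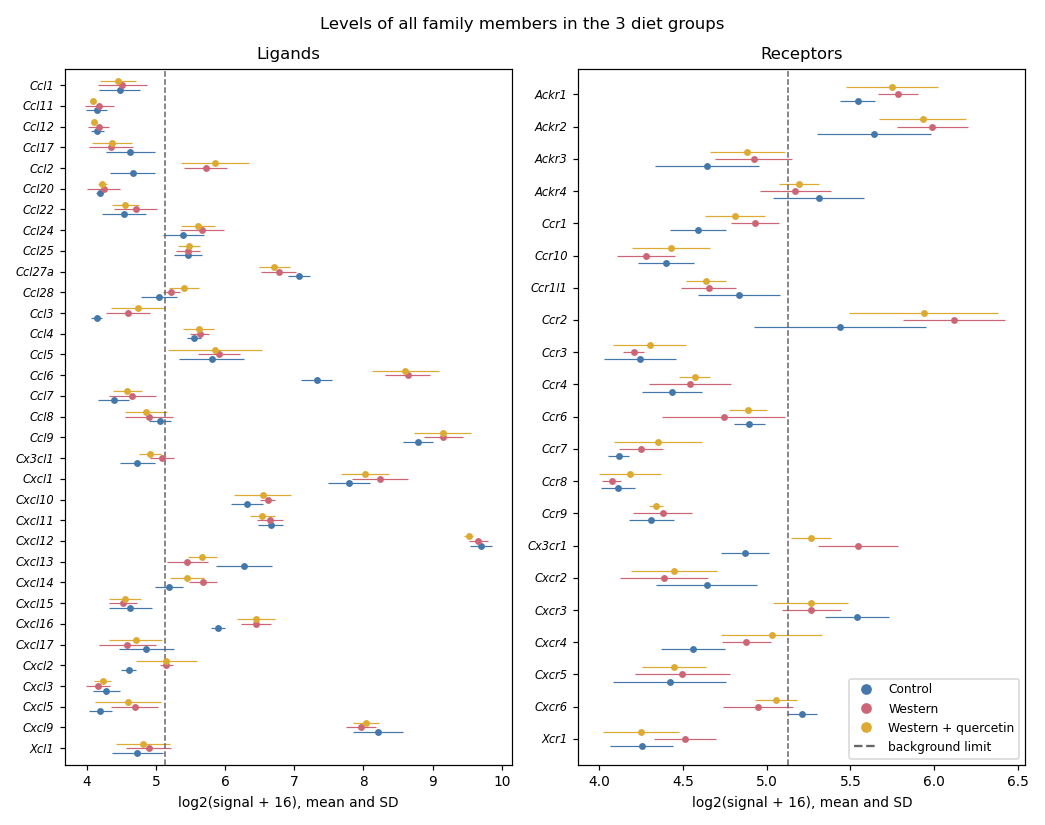
Group means of all 54 members on the log2(signal + 16) axis, ligands on the left and receptors on the right, with bars of 1 SD (n = 5 control, n = 6 Western and n = 6 Western with quercetin) and the background limit of 5.13 as a dashed line. Ccl2, Cxcl2, Ccl28 and Cx3cr1 cross the line between the control group and the others, and 14 of the 21 receptors stay left of it in every group.

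Of these 54 members, 18 were dimmer than the 25th percentile of all genes and were not tested. Their group means ran from 4.07 to 4.74. They were the ligands Ccl1, Ccl3, Ccl7, Ccl11, Ccl12, Ccl17, Ccl20, Cxcl3 and Cxcl5 and the receptors Ccr3, Ccr4, Ccr7, Ccr8, Ccr9, Ccr10, Cxcr2, Cxcr5 and Xcr1. The other 11 members near background, Ccl8, Ccl22, Cx3cl1, Cxcl15, Cxcl17, Xcl1, Ccr1, Ccr1l1, Ccr6, Cxcr4 and Ackr3, were tested. Since the filter used the mean over all samples, members raised by a diet were more likely to pass it.

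The Western diet against the control diet asks what 20 weeks of fat, sucrose and cholesterol did to the family. Ccl6, Ccl2, Cxcl16, Cxcl2, Cxcl14, Cx3cr1 and Ccr1 rose and Cxcl13 fell. Thus 8 of the 36 members tested, or 22.2%, were called at an adjusted p under 0.05 (limma, Benjamini-Hochberg over 13645 genes), where 8.65% of all genes tested were called. In the upward direction it was 7 of 36 against 5.49% of all genes, and downward 1 of 36 against 3.16%. With every dim gene included, 7 of all 54 members were called, against 5.81% of all 18193 genes. The median log2 difference of the members tested was 0.17, beside -0.01 for all genes, and 22 of 36 differences were positive. By class, 5 ligands rose and 1 fell of 24 tested, and 2 receptors rose of 12.

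**Figure D2:**
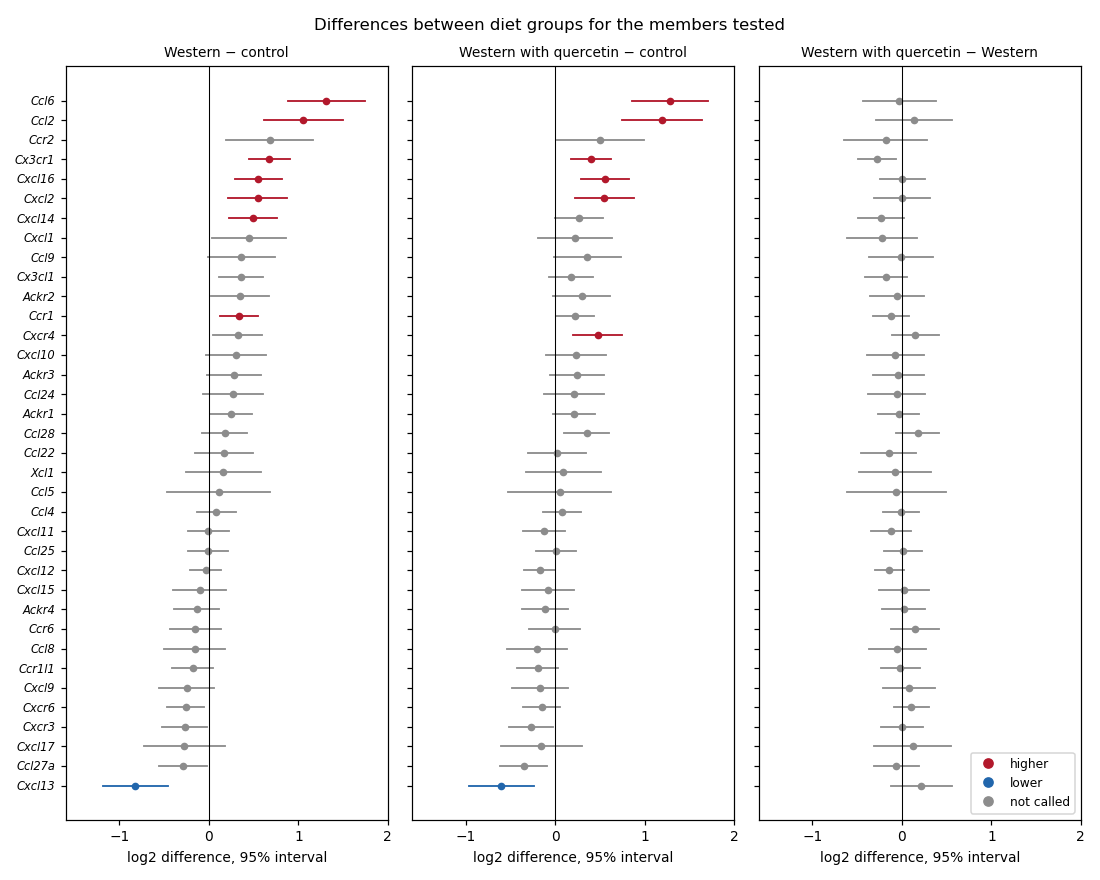
Log2 differences with 95% confidence intervals for the 36 members tested, in the order of the Western minus control difference, for Western minus control, Western with quercetin minus control and Western with quercetin minus Western. Red points were called higher, blue points lower and grey points not called; both left panels share the same 5 control samples, and the right panel holds no called member.

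Among the CC ligands, Ccl6 and Ccl2 moved most. Ccl6, a chemokine made by macrophages that attracts monocytes and macrophages, had levels of 7.57, 7.37, 6.96, 7.41 and 7.30 in control samples 1, 2, 3, 4-5 and 6. In Western mice its lowest, median and highest levels were 8.15, 8.72 and 9.03. All 6 Western mice lay above every control mouse. The share of all genes whose groups do not overlap is not given here, so such separation is description only. The control mean of 7.32 ± 0.23 (SD, n = 5) compared with 8.64 ± 0.33 (SD, n = 6) on the Western diet, a log2 difference of 1.31 ± 0.20 (SE) or 2.49-fold (limma, adjusted p = 0.000853). A further probe set for Ccl6 differed by 1.26 on the same scale.

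Ccl2, the monocyte attractant also called MCP-1, was at 4.63, 4.47, 4.82, 5.12 and 4.28 in the control samples, all under the background limit. Western mice had 5.25, 5.80 and 6.13 as their lowest, median and highest levels. Again no Western mouse overlapped a control mouse. The mean rose from 4.66 ± 0.32 to 5.72 ± 0.31, a log2 difference of 1.06 ± 0.21 (SE) or 2.08-fold (limma, adjusted p = 0.00471). With a pseudocount of 1 in place of 16 the fold was 3.91, because the control level is so close to background. With the actin ratio as a covariate the log2 difference was 0.78 and the call was lost (adjusted p = 0.118, range over the alternatives 0.00111 to 0.118).

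In the order of genes in RefSeq (GRCm38.p6), Ccl5, Ccl9, Ccl6, Ccl3 and Ccl4 are consecutive, and so are Ccl2, Ccl7, Ccl11, Ccl12, Ccl8 and Ccl1. In each cluster 1 gene was called. Ccl9, the neighbour of Ccl6 and like it a macrophage product that binds Ccr1, had control levels of 8.82, 8.92, 8.43, 8.97 and 8.80 and a Western range of 8.79 to 9.53 with a median of 9.16. Its difference of 0.36 ± 0.18 (SE) did not pass (limma, adjusted p = 0.23). Ccl4, which draws T cells and monocytes, differed by 0.08 ± 0.10 (SE). Ccl5, made by T and NK cells among others, differed by 0.11 ± 0.28 (SE), with control mice from 5.05 to 6.26 and Western mice from 5.46 to 6.35. Of the neighbours of Ccl2, Ccl8 was the only other one tested and differed by -0.16 ± 0.16 (SE).

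The 250 bases upstream of the annotated start are shown for Ccl6 and Ccl9, because these neighbours share a strand and a source cell type while only Ccl6 was called. Sequences are from RefSeq (GRCm38.p6), 5′ to 3′ on the gene's strand, ending at the last base before the start, with every match to 5 searched motifs in capitals. Ccl6 is at chr11:83593088-83593337 and Ccl9 at chr11:83578637-83578886, both on the minus strand.
Ccl6: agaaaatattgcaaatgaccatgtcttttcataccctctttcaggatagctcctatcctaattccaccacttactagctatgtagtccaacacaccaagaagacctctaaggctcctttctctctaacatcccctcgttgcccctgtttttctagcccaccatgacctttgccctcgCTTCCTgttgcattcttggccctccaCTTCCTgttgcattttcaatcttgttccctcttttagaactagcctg
Ccl9: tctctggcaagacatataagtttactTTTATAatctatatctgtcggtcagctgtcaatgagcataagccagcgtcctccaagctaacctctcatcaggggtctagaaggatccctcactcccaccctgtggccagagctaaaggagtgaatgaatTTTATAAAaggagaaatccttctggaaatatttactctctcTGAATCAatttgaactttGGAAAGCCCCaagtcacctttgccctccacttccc
The motifs, sought on both strands, were kappaB (GGG, then NN for any bases, then TTTCC), the ETS core (AGGAAG), AP-1 (TGANTCA), C/EBP (TTGCNNAA) and the TATA box (TATAAA). The capitals in Ccl6 are 2 ETS cores on the reverse strand, at 73 to 68 and 47 to 42 bases before the start. Those in Ccl9 are a reverse kappaB match at 35 to 26 bases, an AP-1 match at 53 to 47 bases and TATA letters, of which those at 94 to 89 and 92 to 87 bases overlap. The ETS core is common, in 29.5% of all 32851 promoter sequences of this length and in 20 of the 41 family members that have one. A match is a string of letters and not a measured binding site.

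Among the CXC ligands, Cxcl2 rose and its neighbour Cxcl1 did not pass the test. Both attract neutrophils through Cxcr2, which was itself too dim to test (group means 4.64, 4.39 and 4.45 in control, Western and quercetin mice). Cxcl2 was at 4.76, 4.47, 4.53, 4.59 and 4.66 in the control samples and at 5.01, 5.16 and 5.25 (lowest, median, highest) in Western mice. The groups did not overlap, but the Western mean only just exceeded the background limit. The mean rose from 4.60 ± 0.11 to 5.15 ± 0.09, a log2 difference of 0.55 ± 0.16 (SE) or 1.46-fold (limma, adjusted p = 0.0364). The call was kept in 9 of the 17 fits that left out 1 sample and lost without control sample 2, 3, 4-5 or 6 or Western sample 1, 3, 4 or 5, with adjusted p up to 0.0822.

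Cxcl1 had control levels of 7.69, 7.52, 8.31, 7.68 and 7.78, and Western levels from 7.89 to 8.99 with a median of 8.08. Control sample 3 lay within the Western range. The difference was 0.44 ± 0.20 (SE), not called (limma, adjusted p = 0.181). Its other probe sets differed by 0.57 and -0.09, so the probe sets for Cxcl1 disagree.

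The upstream bases of Cxcl2 and Cxcl1 are shown because this neighbouring pair carries the same kappaB letters. Cxcl2 is at chr5:90903649-90903898 and Cxcl1 at chr5:90890995-90891244, both on the plus strand, printed as above.
Cxcl2: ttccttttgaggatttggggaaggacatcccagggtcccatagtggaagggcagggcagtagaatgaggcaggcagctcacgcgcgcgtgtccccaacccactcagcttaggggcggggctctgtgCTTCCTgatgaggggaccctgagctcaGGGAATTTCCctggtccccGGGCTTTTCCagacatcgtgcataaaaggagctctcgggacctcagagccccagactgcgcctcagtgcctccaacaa
Cxcl1: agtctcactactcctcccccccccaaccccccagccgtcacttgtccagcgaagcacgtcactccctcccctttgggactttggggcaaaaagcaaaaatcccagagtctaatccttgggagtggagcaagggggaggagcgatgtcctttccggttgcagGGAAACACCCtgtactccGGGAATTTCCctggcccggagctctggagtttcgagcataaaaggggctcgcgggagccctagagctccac
Cxcl2 holds GGGAATTTCC at 97 to 88 bases and GGGCTTTTCC at 78 to 69 bases before the start, and a reverse ETS core at 124 to 119 bases. Cxcl1 holds the same GGGAATTTCC at 71 to 62 bases and a reverse match, GGAAACACCC, at 89 to 80 bases. The kappaB letters occur in 1.41% of all promoter sequences. They occur in 6 of the 41 members with a sequence: Cxcl1, Cxcl2, Cxcl3, Ccl9, Ccl20 and Ccr3. Of these 6, Cxcl2 was called and Cxcl1 and Ccl9 were tested without a call, while Cxcl3, Ccl20 and Ccr3 were too dim to test.

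Cxcl16, a membrane-bound ligand of Cxcr6 that also takes up oxidised lipoprotein, rose without overlap. Control samples were at 5.90, 6.02, 5.79, 5.97 and 5.80, and Western mice at 6.09, 6.48 and 6.72 (lowest, median, highest). The mean went from 5.90 ± 0.10 to 6.45 ± 0.21, a log2 difference of 0.55 ± 0.13 (SE) or 1.47-fold (limma, adjusted p = 0.0111). The probe set used belongs to a design class that can also detect related transcripts. The other probe set is not of that class, differed by 0.38 and was not called when it stood for the gene (limma, adjusted p = 0.181, range over the alternatives 0.00166 to 0.184). Its receptor Cxcr6, found on T and NK cells, was not called: control samples were at 5.08, 5.25, 5.20, 5.32 and 5.20, and Western mice at 4.70, 4.94 and 5.31. The Cxcr6 difference was -0.26 ± 0.10 (SE; limma, adjusted p = 0.104, range 0.029 to 0.826 over the alternatives), and 5 of 6 Western mice lay below every control mouse.

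Cxcl14, a chemokine of epithelia and stroma, had control levels of 5.45, 5.16, 5.26, 5.21 and 4.88 and Western levels of 5.35, 5.74 and 5.93. Western sample 6 fell within the control range and the other 5 mice lay above it. The mean rose from 5.19 ± 0.20 to 5.68 ± 0.21, a log2 difference of 0.49 ± 0.13 (SE) or 1.40-fold (limma, adjusted p = 0.0236). The call was lost without control sample 6 (adjusted p = 0.0702) or Western sample 1 (adjusted p = 0.0567), with 0.003 to 0.139 over the alternatives.

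Cxcl13, which draws B cells through Cxcr5, was the only member called lower. Its control levels were 6.52, 6.70, 6.46, 5.77 and 5.92, and its Western levels 4.94, 5.46 and 5.84. Control samples 1 to 3 were the highest, and 5 of 6 Western mice lay below every control mouse. The mean fell from 6.27 ± 0.41 to 5.45 ± 0.30, a log2 difference of -0.82 ± 0.17 (SE), or 1.77-fold lower (limma, adjusted p = 0.00634). A further probe set for Cxcl13 differed by -0.99. Cxcr5 lay near background, with group means of 4.42, 4.50 and 4.45 in control, Western and quercetin mice. Of 7 B and plasma cell markers tested, Igha fell 1.51-fold and Jchain 1.30-fold, 5 were not called and Cd79a was near background. Their summed signals of 331 to 803 in control and 192 to 377 in Western mice overlapped, and 803 was control sample 1, with 479 as the next highest. Their part in the Cxcl13 result was not tested.

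The upstream bases of Cxcl13 are shown as those of the 1 ligand that fell, at chr5:95956689-95956938 on the plus strand.
Cxcl13: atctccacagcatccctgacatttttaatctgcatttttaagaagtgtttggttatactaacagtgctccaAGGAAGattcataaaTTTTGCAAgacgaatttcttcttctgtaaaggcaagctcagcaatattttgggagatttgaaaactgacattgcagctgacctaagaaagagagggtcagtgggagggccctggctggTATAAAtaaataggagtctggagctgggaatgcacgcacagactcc
They hold an ETS core at 179 to 174 bases, a reverse C/EBP match at 164 to 157 bases and a TATA box at 46 to 41 bases before the start, and no kappaB letters within this window. C/EBP letters occur in 9.56% of all promoter sequences and TATAAA in 12.4%.

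**Figure D3:**
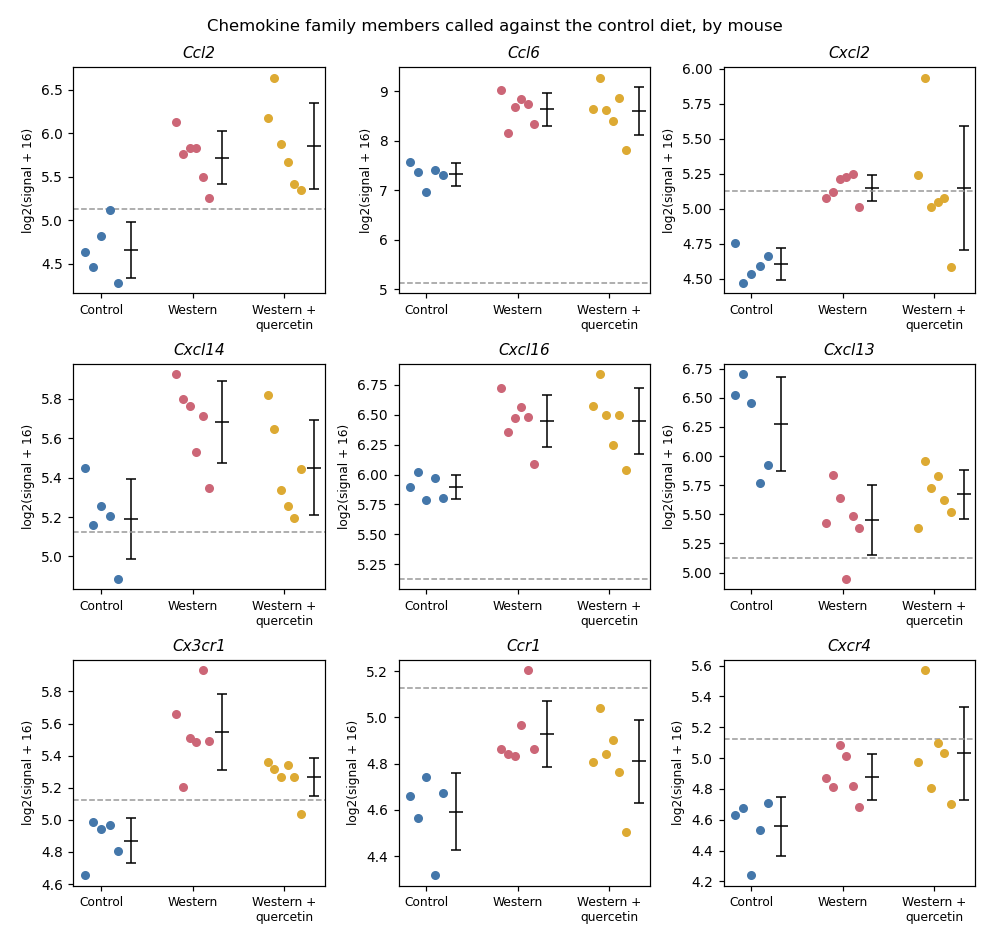
Level of each of the 9 members called in at least 1 comparison with the control diet, on the log2(signal + 16) axis, with 1 point per sample, bars for the mean ± 1 SD and the background limit of 5.13 dashed. Ccl6, Ccl2, Cxcl16 and Cx3cr1 separate the control mice from all mice on the Western diet, and Cxcl13 is lower. The group means of Ccr1 and Cxcr4 lie under the limit, with Western sample 5 at 5.20 for Ccr1 and quercetin sample 2 at 5.57 for Cxcr4 above it.

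The other ligands were not called. Cxcl9, Cxcl10 and Cxcl11, which are induced by interferon and bind Cxcr3 on T and NK cells, gave no common direction. Cxcl9 control levels were 8.24, 8.35, 8.35, 8.52 and 7.59 and Western levels 7.67, 7.91 and 8.31, a difference of -0.25 ± 0.15 (SE). Cxcl10 control levels were 6.58, 6.09, 6.55, 6.24 and 6.11 and Western levels 6.52, 6.57 and 6.76, a difference of 0.30 ± 0.16 (SE). Cxcl11 had a 95% interval of -0.24 to 0.23, with control mice from 6.46 to 6.89 and Western mice from 6.32 to 6.87. The adjusted p-values of these 3 ligands ran from 0.278 upward.

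Cxcl12, which holds leukocytes and progenitors in place through Cxcr4, had control levels of 9.51, 9.61, 9.68, 9.77 and 9.91 and Western levels of 9.47, 9.68 and 9.79. Its interval for the difference was -0.21 to 0.14, and another bright probe set for Cxcl12 differed by -0.28. Ccl24, an eosinophil attractant, ranged from 4.96 to 5.78 in control and from 5.35 to 6.27 in Western mice, a difference of 0.27 ± 0.16 (SE). Ccl25, the Ccr9 ligand of gut and thymus, ranged from 5.24 to 5.75 and from 5.23 to 5.63, and its interval was -0.23 to 0.21. Ccl27a and Ccl28 bind Ccr10 and guide lymphocytes to skin and mucosa. Ccl27a was at 6.87 to 7.24 in control and 6.35 to 7.01 in Western mice, a difference of -0.29 ± 0.13 (SE) that was not called (limma, adjusted p = 0.171). Its probe set is of a design class that can also detect related transcripts. Ccl28 was at 4.79 to 5.46 and 5.09 to 5.34, a difference of 0.18 ± 0.12 (SE), while another probe set of similar brightness differed by -0.27. Cx3cl1, the membrane-bound ligand of Cx3cr1, lay near background at control levels of 4.48, 4.95, 4.83, 4.45 and 4.96 and Western levels of 4.74, 5.12 and 5.26. Its difference of 0.36 ± 0.12 (SE) was not called (limma, adjusted p = 0.066), and was called without Western sample 6 (adjusted p = 0.0261, range over the alternatives 0.00532 to 0.617).

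Among the receptors, Cx3cr1, the fractalkine receptor of monocytes and macrophages, had the smallest p. Control samples were at 4.65, 4.99, 4.94, 4.97 and 4.80, and Western mice at 5.20, 5.50 and 5.93. Every control mouse was under the background limit and every Western mouse over it. The mean rose from 4.87 ± 0.14 to 5.55 ± 0.24, a log2 difference of 0.68 ± 0.11 (SE) or 1.60-fold (limma, adjusted p = 0.000982). The other probe set for Cx3cr1, near background, differed by 0.25.

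Ccr2, the receptor of Ccl2 on classical monocytes, had control levels of 5.73, 5.22, 6.11, 5.39 and 4.74 and Western levels of 5.62, 6.24 and 6.43. The control mice spread widely, and 4 of 6 Western mice lay above all of them. The difference of 0.68 ± 0.23 (SE), or 1.60-fold, was as large as that of Cx3cr1 and was not called (limma, adjusted p = 0.0771). It was called without control sample 3 (adjusted p = 0.0321), Western sample 2 (0.0423) or quercetin sample 2 (0.0498), and with array medians centred (0.036), and ran from 0.01 to 0.614 over the alternatives. Its 3 other probe sets differed by 0.41, 0.27 and -0.27.

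Ccr1, a receptor for Ccl6 and Ccl9 on monocytes and neutrophils, stayed near background. Its control levels were 4.66, 4.56, 4.74, 4.32 and 4.67 and its Western levels 4.83, 4.86 and 5.20. The groups did not overlap, and the mean rose from 4.59 ± 0.17 to 4.93 ± 0.14, a log2 difference of 0.34 ± 0.10 (SE) or 1.26-fold (limma, adjusted p = 0.045). The call was lost in 13 of the 17 fits that left out 1 sample, with adjusted p up to 0.113, and was kept only without control 3, Western 2, quercetin 2 or quercetin 6. It was lost as well when no gene was filtered out (adjusted p = 0.0551). The other, dimmer probe set for Ccr1 differed by -0.04.

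Cxcr3 had control levels of 5.69, 5.66, 5.39, 5.28 and 5.67 and Western levels of 5.00, 5.25 and 5.49, a difference of -0.27 ± 0.12 (SE) that was not called (limma, adjusted p = 0.167). Cxcr4 differed by 0.32 ± 0.13 (SE; limma, adjusted p = 0.142). Among the scavengers, Ackr1, which binds many chemokines on red cells and venules, was at 5.45 to 5.68 in control and 5.61 to 5.98 in Western mice, a difference of 0.24 ± 0.11 (SE). Ackr2, which degrades inflammatory CC chemokines, was at 5.33 to 6.20 and 5.75 to 6.24, a difference of 0.35 ± 0.15 (SE), and was called without control sample 2 (adjusted p = 0.0426, range over the alternatives 0.0171 to 0.499). Ackr4, a scavenger of Ccl25 and lymph node chemokines, was at 4.93 to 5.60 and 4.87 to 5.43, a difference of -0.14 ± 0.12 (SE). Ackr3, which clears Cxcl12, lay near background and differed by 0.28 ± 0.14 (SE). The remaining receptors tested, Ccr6 and Ccr1l1, differed by -0.15 and -0.18. None of these 8 receptors was called.

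With the actin ratio as a covariate, 3 of the 36 members tested remained called (Ccl6, Cx3cr1 and Cxcl13) beside 1.63% of all genes. The labels number the samples 1 to 6 without saying what the numbers mean. Within samples 1 to 3, with 3 mice a group, 2 members were called, beside 0.64% of all genes. Within 4 to 6, with 2 control samples, 0 were called, beside 2.17% of all genes. In that set 16 members had an unadjusted p under 0.05 (limma), and the share of all genes at that p is not given here. The differences kept their sign in both sets for all 8: Ccl6 differed by 1.32 and 1.29, Ccl2 by 1.27 and 0.83, Cx3cr1 by 0.60 and 0.75, Cxcl16 by 0.61 and 0.49, and Cxcl13 by -0.93 and -0.58. These 8 had been called on the same samples, so the shared sign is description and not a further test.

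The Western diet with quercetin against the control diet uses the same 5 control samples, so its values are set beside those above and are not a separate trial. Ccl6, Ccl2, Cxcl16, Cxcl2, Cx3cr1 and Cxcr4 rose and Cxcl13 fell. That is 7 of 36 members tested, or 19.4%, where 5.41% of all genes were called, with 6 higher against 3.43% and 1 lower against 1.98%. The median log2 difference was 0.13, beside -0.01 for all genes. With every dim gene included, 4 of 54 members were called, against 3.63% of all genes.

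Ccl6 ran from 7.81 to 9.28 in quercetin mice with a median of 8.64, above every control mouse. Its mean was 8.61 ± 0.49 (SD, n = 6), 2.43-fold over control (limma, adjusted p = 0.00161). Ccl2 ran from 5.35 to 6.64 with a median of 5.77, also without overlap, and its mean of 5.85 ± 0.49 was 2.28-fold over control (limma, adjusted p = 0.0031). Cxcl16 ran from 6.04 to 6.84 with a median of 6.50. Its mean of 6.45 ± 0.28 was 1.47-fold over control (limma, adjusted p = 0.0145), and the other probe set was again not called alone (adjusted p = 0.152, range over the alternatives 0.00221 to 0.326). These 3 ligands thus separated all quercetin mice from all control mice. With the actin ratio as a covariate, Ccl2 was not called (limma, adjusted p = 0.0681, range over the alternatives 0.00104 to 0.185). Ccl6 was the 1 member called in that fit, beside 1.14% of all genes.

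Calls closer to the threshold were often lost when 1 sample was left out. For Cxcl2 and Cxcl13 this included Western samples, which are outside this comparison and left the difference itself unchanged. Cx3cr1 ran from 5.04 to 5.36 with a median of 5.29, all above the control mice, and its mean of 5.27 ± 0.12 was 1.32-fold over control (limma, adjusted p = 0.0363). It lost the call in 9 of 17 fits that left out 1 sample, those without control 1, 2, 3 or 6 or quercetin 1 to 5, with adjusted p up to 0.0895. Cxcl2 ran from 4.58 to 5.93 with a median of 5.06, and 5 of 6 quercetin mice lay above every control mouse. Its mean of 5.15 ± 0.44 was 1.46-fold over control (limma, adjusted p = 0.0479), and the call was kept in 2 of 17 such fits, those without quercetin 2 or 6, with adjusted p up to 0.107 in the others. Cxcl13 ran from 5.38 to 5.95 with a median of 5.67, below every control mouse in 4 of 6. Its mean of 5.67 ± 0.21 was 1.52-fold lower (limma, adjusted p = 0.0466), and the call was kept in 5 of 17 such fits, those without control 4-5 or 6, Western 2 or 4, or quercetin 2, with adjusted p up to 0.125 in the others.

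Cxcr4, the Cxcl12 receptor of most leukocytes, was called in this comparison alone, which does not show that it differed between the diets with and without quercetin. Its control levels were 4.63, 4.67, 4.24, 4.54 and 4.71, its Western levels 4.68, 4.84 and 5.09, and its quercetin levels 4.70, 5.00 and 5.57 (lowest, median, highest). Sample 2 of the quercetin group was the only one above the background limit. The difference from control was 0.47 ± 0.13 (SE), 1.39-fold (limma, adjusted p = 0.0401), and the call was lost in 10 of 17 fits that left out 1 sample (without any 1 of the control samples, Western 5 or quercetin 1, 2, 4 or 5), with adjusted p up to 0.109. Its control mean of 4.56 lay just under the level of the filter, so it was tested only because of its level on the Western diets, and without the filter it was not called (adjusted p = 0.0509). The calls of Cxcl2 and Cxcl13 in this comparison were lost without the filter too (adjusted p = 0.0617 and 0.0602). Cxcl14 and Ccr1, called on the Western diet, had differences of 0.26 ± 0.13 and 0.22 ± 0.10 (SE) here and were not called (limma, adjusted p = 0.268 and 0.232).

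Of the members not called, Ccl28 came closest at 0.35 ± 0.12 (SE; limma, adjusted p = 0.0968), with quercetin mice at 5.12 to 5.72, and it was called without control sample 2 (adjusted p = 0.0295, range over the alternatives 0.00723 to 0.549). Another probe set for Ccl28 of similar brightness differed by -0.07. Ccl27a was at 6.39 to 6.93, with 5 of 6 mice under every control mouse, a difference of -0.36 ± 0.13 (SE; limma, adjusted p = 0.115). Ccr2 ran from 5.38 to 6.64 and differed by 0.50 ± 0.23 (SE; adjusted p = 0.234). Ccl9, at 8.56 to 9.56, differed by 0.36 ± 0.18 (SE; adjusted p = 0.278), and Cxcl1, at 7.75 to 8.65, by 0.22 ± 0.20 (SE; adjusted p = 0.58). Cxcl12 was at 9.43 to 9.60 and differed by -0.18 ± 0.08 (SE; adjusted p = 0.243). The other bright Cxcl12 probe set differed by -0.40, and the mean of the Cxcl12 probe sets by -0.32 (adjusted p = 0.0702), again not called. The other ligands had quercetin ranges of 7.76 to 8.30 for Cxcl9, 6.13 to 7.14 for Cxcl10, 6.25 to 6.72 for Cxcl11, 5.35 to 5.85 for Ccl4, 4.62 to 6.46 for Ccl5, 5.31 to 6.03 for Ccl24 and 5.18 to 5.63 for Ccl25. The other receptors had 4.89 to 5.47 for Cxcr3, 4.85 to 5.18 for Cxcr6, 5.31 to 6.07 for Ackr1, 5.56 to 6.34 for Ackr2 and 5.02 to 5.33 for Ackr4. Each of these 12 overlapped the control range.

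Quercetin within the Western diet is the comparison of the 2 Western groups with each other, which share no sample. No member was called (limma, 0 of 36, and 0% of all genes), and at an unadjusted p under 0.05 there was 1 of 36 members, Cx3cr1, beside 2.87% of all genes. The median difference of the members was -0.03 and the median 95% interval reached 0.28 to either side. These intervals are not adjusted for the number of genes tested, so a call for a typical member would have needed a larger difference than that. Cx3cr1 was lower with quercetin by -0.28 ± 0.10 (SE; interval -0.50 to -0.07, unadjusted p = 0.0128, limma adjusted p = 1), with ranges of 5.04 to 5.36 and 5.20 to 5.93 that overlap. The next smallest unadjusted p-values belonged to Cxcl14 (-0.23, interval -0.49 to 0.03), Cxcl12 (-0.14, interval -0.30 to 0.03), Cx3cl1 (-0.18, interval -0.41 to 0.05) and Ccl28 (0.18, interval -0.06 to 0.42).

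For the ligands that differed most from control, the intervals of quercetin minus Western were -0.44 to 0.38 for Ccl6, -0.29 to 0.56 for Ccl2, -0.25 to 0.25 for Cxcl16, -0.31 to 0.31 for Cxcl2 and -0.13 to 0.56 for Cxcl13. Each of these 5 intervals ended short of the size of that ligand's own difference between Western and control mice. A p-value that misses the threshold does not show that the diets act alike. Within samples 1 to 3 the Cx3cr1 difference was -0.14 and within samples 4 to 6 it was -0.42. Ccl6 differed by 0.23 and -0.29 in these sets and Cxcl2 by 0.26 and -0.26.

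Mice of the same group differed, and the same mice tended to be high or low for several members. Over the 8 members with a higher mean in Western than in control mice among the 9 called ones (Ccl6, Ccl2, Cxcl16, Cxcl2, Cxcl14, Cx3cr1, Ccr1 and Cxcr4), quercetin sample 2 was the highest of its group in 6 and quercetin sample 6 the lowest in 7. In the Western group, sample 1 was the highest in 4, sample 5 in 3, and sample 6 the lowest in 5. Quercetin sample 2 reached 9.28 for Ccl6, 6.64 for Ccl2, 5.93 for Cxcl2 and 5.57 for Cxcr4. Quercetin sample 6 had 7.81, 5.35, 4.58 and 4.70. With both of these samples left out, a choice made after seeing the data, 9 members were called for Western against control and 6 for quercetin against control. Of all genes, 9.70% and 3.99% were called in these fits. The macrophage marker sum was also highest in quercetin sample 2 (17718) and lowest in quercetin sample 6 (6236) of their group, and the neutrophil marker sum likewise (410 and 131). The same held for the T cell, NK cell and stellate cell sums and for Ptprc, so it was not particular to macrophages and neutrophils. In the other cell type lists these samples were not both the extremes.

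**Figure D4:**
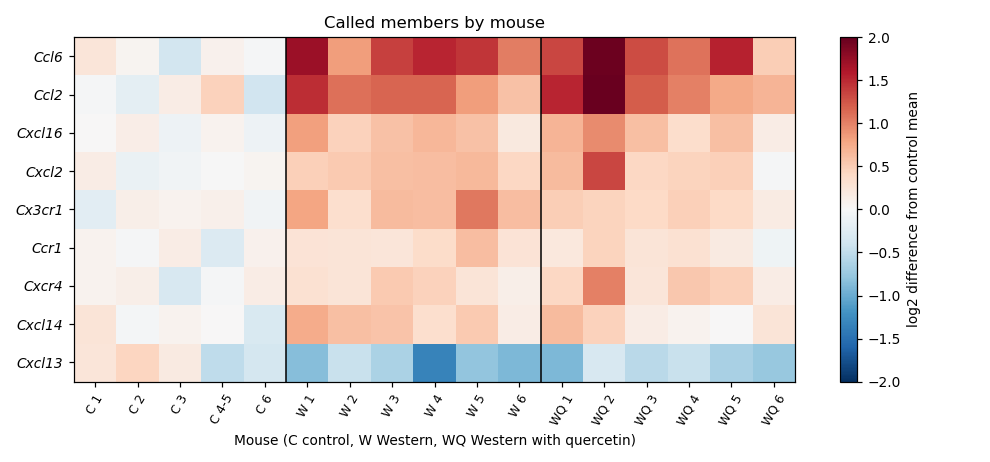
Difference of each sample from the control mean, in log2 units, for the 9 members called against the control diet (rows) in the 17 samples (columns; C control, W Western, WQ Western with quercetin, and 4-5 the mean of control arrays 4 and 5). Quercetin sample 2 is the darkest red of its group in Ccl6, Ccl2, Cxcl16, Cxcl2, Ccr1 and Cxcr4, and the Cxcl13 row is blue in all mice on the Western diet.

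The lists of other cell types were read in the same arrays, because chemokines and their receptors mark leukocytes. In whole liver, fewer cells of a type and less RNA per cell cannot be told apart. Of 18 macrophage and Kupffer cell markers tested, 8 rose on the Western diet, among them Gpnmb (5.62-fold), Lgals3 (3.32-fold) and Lyz2 (2.65-fold). Cd163, a scavenger receptor of resident macrophages, fell 2.22-fold (limma, adjusted p = 0.00285), as the 1 marker of that list that did. The median difference of the list was 0.62, beside -0.01 for all genes. Its summed signal was 5099 to 6601 in control, 7484 to 13647 in Western and 6236 to 17718 in quercetin mice, and Trem2 was near background. Every Western mouse exceeded every control mouse in that sum. The part of macrophage content in the higher Ccl6, Ccl2, Cxcl16, Cx3cr1 and Ccr1 was not tested.

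Of 5 monocyte markers tested, Plac8 (1.47-fold) and Chil3 (1.64-fold, near background) rose. The median log2 difference of the list was 0.56 for Western and 0.37 for quercetin against control. The summed signals of 3235 to 3870 in control, 3404 to 3658 in Western and 3054 to 3769 in quercetin mice overlapped, but a sum mostly follows its brightest genes. This list also holds Ccr2, a member. None of the 7 neutrophil markers tested was called, the sums were 108 to 192, 164 to 264 and 131 to 410, and the defining genes Mpo, Elane, Camp and Ltf were near background. T cells, which carry Cxcr3 and Cxcr6, had 7 of 9 markers near background, Cd3d, Cd3e and Cd3g among them, and 0 of 4 tested were called (limma; sums 101 to 119, 82.4 to 126 and 85.6 to 113). NK cell markers had 4 of 7 near background and 0 of 4 called (sums 88.6 to 113, 89.2 to 131 and 85.6 to 138). All 7 mast cell and eosinophil markers were near background. Of 9 stellate cell markers, 4 rose (Col1a1 3.45-fold, Rgs5, Pdgfrb and Dcn), and of 9 endothelial markers Lyve1 and Vwf rose, as did Flt4 of 3 lymphatic endothelial markers. Of 10 hepatocyte markers Tat and Pck1 fell, with summed signals of 67452 to 70438 in control and 62234 to 65341 in Western mice. None of 5 dendritic cell or 4 cholangiocyte markers tested was called (limma). Ptprc, the pan-leukocyte gene, differed by 0.68 (limma, adjusted p = 0.0808). The part of these cell types in the results was not tested either.

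**Figure D5:**
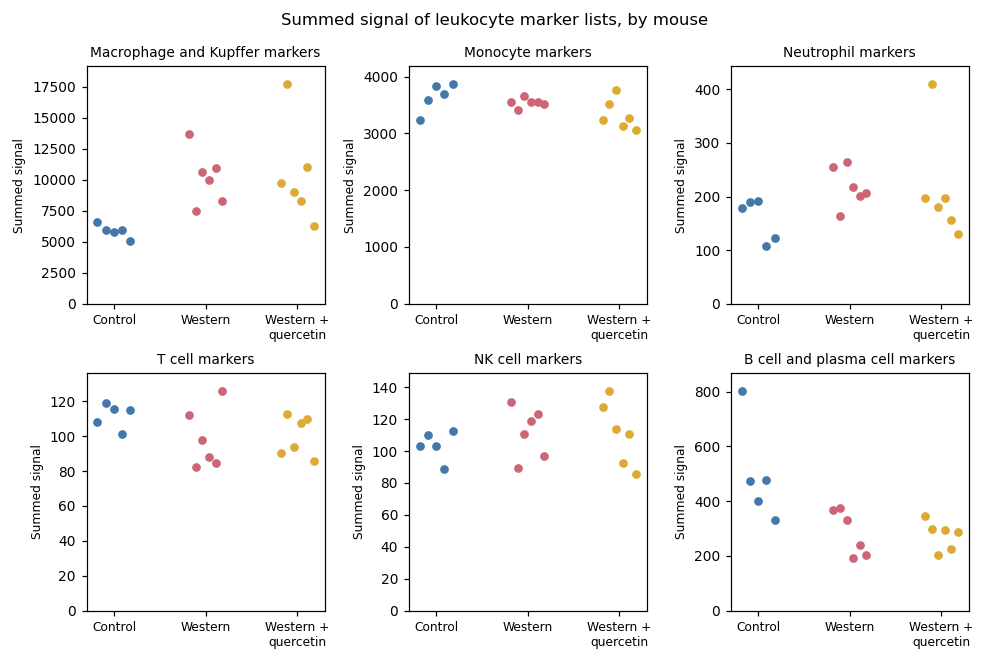
Summed signal of 6 leukocyte marker lists in each sample, in the deposited intensity units after normalization, with 1 point per sample and every axis starting at 0. The macrophage sum is above all control mice in all 6 Western mice, and the B cell and plasma cell sum is highest in control sample 1 (803).

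The pathway downstream of the receptors and the adhesion steps that follow were read from lists. Of 29 genes of chemokine receptor signalling tested, 5 rose on the Western diet and 0 fell, where 5.49% of all genes tested were called higher. They were Rgs1 (1.61-fold) and Rgs2 (1.84-fold), which shorten G protein signals, the G protein subunit Gnb1 (1.25-fold), and the small GTPases Cdc42 (1.32-fold) and Rap1b (1.30-fold). The median of the list was 0.18. With quercetin, Rgs1 (2.03-fold over control; limma, adjusted p = 0.00488) and Gnb1 were called. Of 14 leukocyte adhesion genes, 5 rose on the Western diet, against the same background of 5.49%: the endothelial ligands Icam1 (1.62-fold) and Vcam1 (1.69-fold), the integrin chains Itgb2 (1.96-fold) and Itgam (1.25-fold, near background), and the hyaluronan receptor Cd44 (1.94-fold). Icam1 and Cd44 were also called with quercetin, at 1.52-fold and 1.92-fold.

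Of 7 chemokines and related receptors under other symbols, Pf4 (Cxcl4), the platelet chemokine that macrophages also make, rose 1.63-fold (limma, adjusted p = 0.0157), and with quercetin it was 1.33-fold over control and not called (adjusted p = 0.179). Pf4 was also the 1 gene called of 4 platelet markers tested. The summed signals of the platelet list were 125 to 155 in control, 167 to 216 in Western and 140 to 214 in quercetin mice. All Western mice lay above all control mice in that sum, which includes Pf4 itself. The part of platelets in the Pf4 result was not tested. Of 12 genes that process or induce chemokines, the macrophage elastase Mmp12 rose 5.05-fold on the Western diet and 4.03-fold with quercetin. The inducers Tnf, Il6, Ifng and Il17a were near background in all groups. Between the Western groups 0 genes of these lists were called (limma), as for all genes.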

How the data were processed

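Liver RNA of 18 mice was measured on 18 arrays. The table deposited by the authors holds linear intensity signals, with 1 value for each probe set on each array. How the authors summarised and normalized the scans is not given in the sources used here. Gene symbols come from the platform annotation, and all 54 members had the same symbol in RefSeq (GRCm38.p6) by gene identifier. Ccl19, Ccl21a and Ccl27b were read only by probe sets with several symbols and are not analysed here.

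The 45037 probe sets that are not controls entered quantile normalization as log2(value + 16), and the brightest probe set with exactly 1 symbol stood for a gene. A filter at the 25th percentile of gene means (4.56) kept 13645 genes. Control arrays 4 and 5 (SD of their log2 differences 0.0607, next closest of 153 pairs 0.165) were averaged. The 17 samples were fitted with a mean for each diet in limma 3.58.1 in R 4.3.3, two-sided, and p-values were Benjamini-Hochberg adjusted over all genes kept in each of 3 comparisons. A call is an adjusted p under 0.05. The calling was tested on simulated data. Signal depth has no counts here, so the number of arrays limits the precision: the 95% interval extended a median of 0.29 to each side of a difference from control. Same-numbered samples did not deviate together in every pair, so no block was used. Alternatives changed the scaling, pseudocount, filter, probe set rule, samples and covariates. The motif search used Python 3.11.15.

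Members of the family, marker lists and pathway lists were chosen with earlier results of these data known. The genes named with values per sample are those called, those above background in a group and the 5 with the smallest p in a comparison. From each list up to 4 genes with the smallest p for Western against control were to be named, and members of small counts were named after their values were seen. Figures were drawn with matplotlib 3.10.9.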

Additional observations from a re-analysis of the deposited data

Results flagged for a closer look

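A sample was looked at again when its gap to the nearest other sample of its group exceeded Dixon's 95% critical value of the group's range. Over 27 members and 81 group tests this gave 3 samples, and chance gives about 1 in 20. Ccl24 in Western sample 1 was at 6.27, where the other Western mice lay between 5.35 and 5.66. Ccr1 in Western sample 5 was at 5.20, with the others between 4.83 and 4.96, and without that sample Ccr1 was not called for Western against control (limma, adjusted p = 0.106, range over the alternatives 0.0124 to 0.458). Cx3cr1 in quercetin sample 6 was at 5.04, with the others between 5.27 and 5.36, and without it Cx3cr1 stayed called for quercetin against control.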

How the results depend on the processing

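Over the 33 alternatives run, with 0 sign changes, the 15 calls of a member in a comparison kept their call in 354 cases and lost it in 132. In brackets below is the share of all genes called in the same fit. The 8 members called for Western against control (8.65%) became 17 with values as deposited (27.3%) and 5 with a pseudocount of 64 (9.32%). They became 3 with a filter at the 50th percentile (12.9%, 14 members tested) and 3 with the actin covariate (1.63%). Within samples 1 to 3 and 4 to 6 they became 2 (0.64%) and 0 (2.17%). When 1 sample was left out they ran from 5 (without control sample 6, 5.67%) to 9 (without Western sample 2, 10.2%, or quercetin sample 2, 9.64%). The 7 for quercetin against control (5.41%) became 14 with values as deposited (23.9%), 3 with medians centred (4.98%) and 3 with a pseudocount of 64 (6.37%). They became 4 with no filter (3.63%), 3 with the 50th percentile filter (9.67%) and 4 with only the groups compared (3.42%). Within the sample sets they became 4 (1.64%) and 0 (0.23%), and with the actin covariate 1 (1.14%). With 1 sample left out they ran from 3 (without control 1 or 3 or quercetin 1, 4 or 5, 3.53% to 4.93%) to 6 (5.05% to 6.95%). In samples 4 to 6 these counts of 0 stood beside 16 and 6 members at an unadjusted p under 0.05 (limma), and the share of all genes at that p is not given here. Over the alternatives, the share of all genes called for Western against control ran from 0.64% (samples 1 to 3) to 27.3% (values as deposited). For quercetin against control it ran from 0.23% (samples 4 to 6) to 23.9% (values as deposited). Quercetin against Western stayed at 0 in every alternative. Members near background numbered 45 or 12 under the other limits, from a main count of 29, and 30 with values as deposited. The causes were not tested, beyond the fewer genes or samples that the filters and subsets leave.

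With the replicate number as a block (control arrays 4 and 5 separate) 11, 8 and 0 members were called in the 3 comparisons. Of all genes, 12.7%, 8.86% and 0% were called. The block added Ccl27a, lower in both comparisons with control (limma, adjusted p = 0.0377 and 0.0192). Ccr2 and Cx3cl1 were called higher in Western mice (0.0384 and 0.0348). Both were also called with control arrays 4 and 5 separate and no block (0.047 and 0.0269). These 2 calls thus came with counting the nearly identical arrays as 2 samples and not with the block. With values as deposited and no block, Ccl27a differed by -0.01 and -0.07 in these comparisons with control. Of 18 same-numbered pairs over the 3 comparisons, which share samples, 15 correlated above 0.1 (range -0.26 to 0.33). Pairing was accepted only if every pair did, and the labels give the numbers no meaning. In 10 of 18 pairs the best match was the own number, a hint from the data and not from the design. Signals near background limit what can be seen of 29 members.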

Other observations

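No dim member was called when no gene was filtered out (limma, 0 of 18 in each comparison). Those with an unadjusted p under 0.05 were singled out after their values were seen. Ccl3, a macrophage chemokine beside Ccl6 and Ccl4 in the genome, was at 4.14, 4.60 and 4.74 on average in control, Western and quercetin mice. Its log2 difference from control was 0.45 ± 0.17 (SE) in Western mice (limma, adjusted p = 0.134) and 0.59 ± 0.17 in quercetin mice (adjusted p = 0.0622). Cxcl5, a neutrophil attractant, was at 4.19, 4.69 and 4.60, and its difference of 0.50 ± 0.20 in Western mice had an adjusted p of 0.167. Xcr1, a dendritic cell receptor, was at 4.25, 4.51 and 4.25, with differences of 0.26 ± 0.12 for Western against control (adjusted p = 0.232) and -0.26 ± 0.11 for quercetin against Western (adjusted p = 1). Ccr7, which guides cells to lymph nodes, was at 4.12, 4.25 and 4.35 and differed by 0.23 ± 0.11 for quercetin against control (adjusted p = 0.275).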
